A study of Homo sapiens with 8 samples.

Results

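Ribosome biogenesis genes were examined in HCT116, an established human colorectal cancer cell line in which NUDT21 carries a degradation tag (dTAG). The members are 53 genes for nucleolar assembly and rRNA processing factors, taken by symbol from a fixed list, out of 78932 Ensembl genes in the deposited tables. Of these, 51 had enough counts to be tested. Both groups received JTE-607, an inhibitor of CPSF73, the nuclease that cuts pre-mRNA at poly(A) sites. The control group received DMSO with JTE-607 (4 libraries), and the other group received dTAGV1 with JTE-607 (4 libraries). dTAGV1 is a small molecule that sends tagged proteins to degradation, and NUDT21 encodes the small subunit of CFIm, a factor that recognises RNA upstream of poly(A) sites. The comparison thus asks what differs between dTAGV1 and DMSO in tagged cells that all received JTE-607. These libraries measure neither the tagged protein nor the degree to which cleavage was inhibited. All of them come from tagged cells, so an effect of dTAGV1 itself cannot be told apart from loss of the tagged protein. Libraries without JTE-607 were not analysed here. The labels do not give doses, durations, or whether the tagged line is 1 clone, and they do not say that replicates came from separate cultures, so p-values measure the spread between these libraries.

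Ribosomes are assembled in the nucleolus, where RNA polymerase I makes a long precursor of the ribosomal RNAs. Small nucleolar ribonucleoproteins (snoRNPs) modify this precursor: box C/D particles methylate riboses, and box H/ACA particles convert uridines to pseudouridines. The small-subunit processome and the large-subunit assembly factors then fold and cut the precursor and add ribosomal proteins. In proliferating cancer cells these genes are among the classical targets of the transcription factor MYC.

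Upon dTAGV1, 20 of the 51 tested members fell and 3 rose, while 28 did not pass the test (quasi-likelihood test of edgeR, threshold 0.05 on p-values adjusted by Benjamini-Hochberg over all tested genes). Over all 12618 tested genes, 57.9% were called, 28.5% lower and 29.4% higher, against 45.1% of the members, 39.2% lower and 5.88% higher. Among genes at or above the lowest mean level of a member, 29.8% were called lower and 30.6% higher. The largest fall was that of DKC1, the pseudouridine synthase of box H/ACA particles, at a 2.87-fold lower level. NOP56, NOLC1, TCOF1, MRTO4, RRS1 and EBNA1BP2 fell by 1.59-fold to 1.79-fold. The largest rise was that of NOB1, the endonuclease that completes the small-subunit rRNA, at 1.26-fold. The small-subunit processome, the largest block of members, had 2 called of 17. As the members were named with results of these data known, these counts describe the list and are no test of it.

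Since JTE-607 and the tagged factor both act at mRNA 3′ ends, the annotated ends of the members on which the results turn are shown, followed by 2 promoters. The 30-base windows below come from the principal GENCODE 29 transcript on GRCh38, are written 5′ to 3′ on the strand of the gene, and have the last poly(A) signal hexamer in capitals. DKC1, NOP56 and NOLC1 fell, NOP58 and FBL passed no test, and WDR12 and NOB1 rose.
DKC1 (chrX:154777637-154777666, plus strand): taaaatattttgATTAAAaatctagggacc
NOP56 (chr20:2658361-2658390, plus strand): gccgtgttccccAATAAAaacaaattcaca
NOLC1 (chr10:102163834-102163863, plus strand): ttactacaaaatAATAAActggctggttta
NOP58 (chr2:202303626-202303655, plus strand): ctttgatatacaAATAAAattttctttgta
FBL (chr19:39834459-39834488, minus strand): gtgtgtttttctATTAAAagactcatccgt
WDR12 (chr2:202874792-202874821, minus strand): tagctttgcttgAATAAAcagaaatgtagt
NOB1 (chr16:69741873-69741902, minus strand): atacaaggttatAATAAAactaagaactac

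The poly(A) signal AATAAA and its common variant ATTAAA were searched on the sense strand in the last 50 bases. Of 50 tested members with such a transcript, 25 had AATAAA there, against 63.7% of 10621 tested genes, 12 more had only ATTAAA and 13 had neither. AATAAA was present in 8 of 20 members called lower, 14 of 27 not called and 3 of 3 called higher, and neither hexamer in 8, 5 and 0 of them. The tetramer TGTA, the DNA spelling of the UGUA that CFIm is known to bind, was counted on the sense strand in the last 100 bases. At least 1 copy was present in 26 of these 50 members (52.0%) and in 55.5% of the tested genes. Among members the shares were 11 of 20 called lower, 13 of 27 not called and 2 of 3 called higher. Whether these annotated ends are the ends used in these libraries was not tested.

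Promoters were read from RefSeq on GRCh38.p14 for 42 of the 53 members, as 250 bases before to 50 bases after the start. The E-box CACGTG, a palindrome known as a binding motif of MYC, was present in 16 of them (38.1%). Over all 27305 promoters of this length the share was 7.43%, and over those of 9230 tested genes it was 10.2%. The motif was present in 4 of 16 promoters of members called lower, 11 of 22 not called, 0 of 2 called higher and 1 of 2 not tested. MRTO4, which fell, and FBL, which passed no test, both carry it close to their start, as shown in capitals below.
MRTO4 (chr1:19251555-19251854, plus strand): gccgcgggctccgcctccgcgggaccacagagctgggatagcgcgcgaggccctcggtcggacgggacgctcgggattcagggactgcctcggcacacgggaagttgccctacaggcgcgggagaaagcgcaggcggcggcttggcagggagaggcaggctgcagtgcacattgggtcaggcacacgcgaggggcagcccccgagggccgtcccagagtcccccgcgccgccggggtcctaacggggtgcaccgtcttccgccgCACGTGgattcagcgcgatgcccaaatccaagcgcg
FBL (chr19:39846330-39846629, minus strand): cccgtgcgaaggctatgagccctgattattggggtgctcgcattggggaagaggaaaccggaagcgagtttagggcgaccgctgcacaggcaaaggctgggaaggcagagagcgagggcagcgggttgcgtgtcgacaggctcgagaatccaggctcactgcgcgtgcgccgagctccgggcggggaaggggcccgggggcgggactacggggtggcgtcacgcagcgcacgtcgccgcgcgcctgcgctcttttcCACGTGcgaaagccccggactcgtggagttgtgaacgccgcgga

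The libraries held 8649238 to 9977205 reads, and the sense-strand gene counts summed to 3447842 to 4291256. NUDT21 itself had 28.4 to 35.0 CPM (counts per 1000000 of the scaled library) with DMSO and 4.42 to 10.2 CPM with dTAGV1, which is its mRNA and not the tagged protein. Markers of epithelial cells were present, with 165 to 3228 counts for each of EPCAM, CDH1, KRT8, KRT18, KRT19 and CLDN4. PTPRC, COL1A2, PECAM1, CDH5 and ALB, markers of leucocytes, fibroblasts, endothelium and liver, had 0 to 2 counts in each library, and COL1A1 had 37 to 73. Summed over these 6 markers, the DMSO libraries had 65 to 75 counts and the dTAGV1 libraries 37 to 62, and COL1A1 was not called. Of the epithelial markers, KRT19, KRT18 and CLDN4 fell by 0.65, by 0.60 and by 0.48, EPCAM rose by 0.28, and KRT8 and CDH1 were not called. The part of these differences in the results was not tested. Of uniquely mapped reads, 32.3% ± 1.55 matched no gene feature on the sense strand in the DMSO libraries and 36.6% ± 0.687 in the dTAGV1 libraries (SD, n = 4 each). These shares include reads that lie on the opposite strand of a gene. The part of this difference between the groups in the results was not tested. In bulk RNA, less RNA per cell and fewer cells with that RNA cannot be told apart.

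The members differed widely in level. NCL had the highest mean over both groups, 1290 CPM, and NOP10 the lowest of those tested, 5.60 CPM, with a median of 105 CPM. These levels need no length correction because the kit reads transcript 3′ ends. NOP2, a large-subunit rRNA methyltransferase, had 1 to 9 counts per library and DDX51, a helicase, 0 to 2, so neither was tested. In GENCODE 29, NOP2 overlaps AC006064.6 on the same strand, and the part of this overlap in its low counts was not tested.

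Summed over the 53 members, the share of gene counts was 0.846%, 0.897%, 0.865% and 0.883% in DMSO replicates 1 to 4. With dTAGV1 it was 0.676%, 0.698%, 0.711% and 0.732% in replicates 1 to 4. Every dTAGV1 library thus lay below every DMSO library, with means of 0.872% ± 0.0222 and 0.704% ± 0.0230 (SD, n = 4 each). The falls of NCL, DKC1 and NOP56 came to 54.0% of the net summed difference in CPM, in which rises of other members offset part of the falls. The cytosolic ribosomal protein genes, whose products are the building blocks of the same particle, took 7.08% ± 0.148 of gene counts in the DMSO libraries and 8.11% ± 0.411 in the dTAGV1 libraries (SD, n = 4 each). In dTAGV1 replicates 1 to 4 this share was 7.82%, 7.69%, 8.42% and 8.50%, and replicates 3 and 4 also had the fewest unmapped reads (24.9% and 20.4%, against 27.7% to 30.3% in the other 6 libraries).

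**Figure D1:**
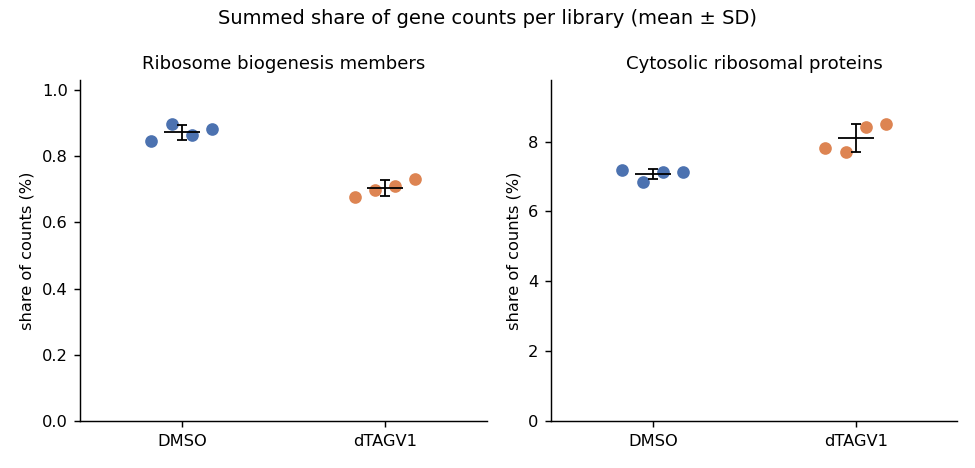
Share of all gene counts (percent, y axis from 0) taken by the 53 ribosome biogenesis members (left) and by 79 cytosolic ribosomal protein genes (right) in each library, with dots for libraries and bars for mean ± SD of 4. The members' share is lower in each of the 4 dTAGV1 libraries than in any DMSO library, and that of the ribosomal proteins is higher.

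DKC1 encodes dyskerin, the catalytic subunit of box H/ACA particles, which also bind telomerase RNA (ENSG00000130826; GRCh38 chromosome X, 154762742 to 154777689, plus strand). Its level was 328, 368, 357 and 348 CPM in DMSO replicates 1 to 4. In dTAGV1 replicates 1 to 4 it was 117, 135, 110 and 126 CPM. The groups were far apart, and the spread within each was small beside the gap. DKC1 fell by 1.52 ± 0.08 on the log2 scale (SE, edgeR Benjamini-Hochberg adjusted p = 4.17e-14). It was the only member among the 9.23% of tested genes that were called lower by more than 2-fold. No member was among the 7.35% called higher by more than 2-fold.

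Of the 3 partners of dyskerin in the particle, NHP2 was called lower, by a small margin, and GAR1 and NOP10 were not called. NHP2, an RNA-binding subunit, had 58.2, 66.8, 59.8 and 63.1 CPM with DMSO and 45.1, 63.4, 50.7 and 48.2 CPM with dTAGV1. Its groups overlapped through dTAGV1 replicate 2, and it fell by 0.26 ± 0.11 (SE, edgeR adjusted p = 0.0377), a call that was lost in 9 of 19 alternatives, among them the omission of DMSO replicate 2 or 4 or of dTAGV1 replicate 1, 3 or 4. GAR1, which helps the particle release its substrate, had 74.3, 78.4, 87.8 and 83.3 CPM with DMSO and 85.0, 87.9, 89.8 and 92.0 CPM with dTAGV1, a log2 fold change of 0.13 ± 0.09 (SE) that did not pass. NOP10, a small scaffold subunit, had 5.74, 4.58, 6.94 and 2.97 CPM with DMSO and 6.80, 4.53, 9.43 and 3.78 CPM with dTAGV1. Its log2 fold change was 0.27 ± 0.30 (SE), and at that depth a change of this size was not detectable. The 4 subunits of this complex thus ran from -1.52 to 0.27 on the log2 scale, and differences between genes were not tested.

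Of the 3 box C/D members, which are not the whole core of the particle, NOP56 was called lower and NOP58 and FBL were not called. NOP56 (ENSG00000101361; chromosome 20, 2652145 to 2658393, plus strand), a scaffold of the particle, had 388, 481, 411 and 404 CPM with DMSO and 258, 272, 264 and 244 CPM with dTAGV1. It fell by 0.70 ± 0.07 (SE, edgeR adjusted p = 1.86e-08), and the lowest DMSO library lay well above the highest dTAGV1 library. NOP58, the second scaffold and a paralogue of NOP56, had 339, 406, 344 and 360 CPM with DMSO and 287, 332, 366 and 358 CPM with dTAGV1. Its ranges overlapped, and its log2 fold change was -0.11 ± 0.08 (SE, edgeR adjusted p = 0.249). NOP58 was called lower when scaled by library size alone (-0.18) and without dTAGV1 replicates 3 and 4 together (-0.25). FBL, the methyltransferase fibrillarin, had 134, 141, 143 and 115 CPM with DMSO and 140, 137, 142 and 150 CPM with dTAGV1, a log2 fold change of 0.09 ± 0.08 (SE, edgeR adjusted p = 0.323).

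**Figure D2:**
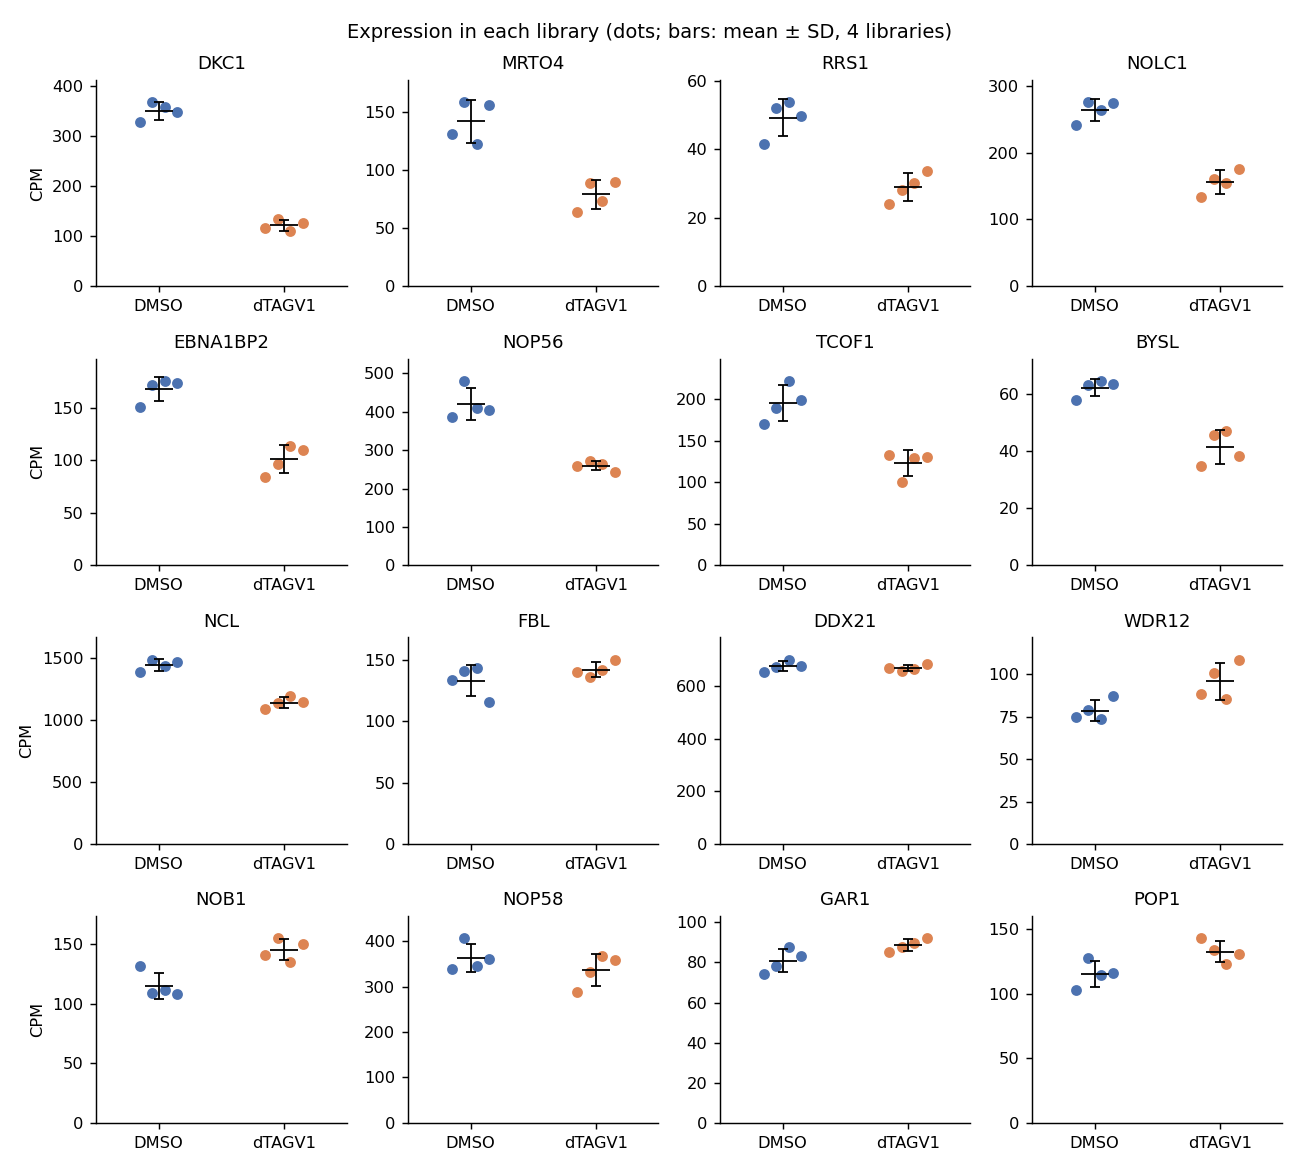
Level in CPM (y axes from 0) of 16 members in each library, with dots for the 4 DMSO and 4 dTAGV1 libraries and bars for mean ± SD. DKC1 lies at 328 to 368 CPM with DMSO and at 110 to 135 CPM with dTAGV1. The next 8 panels and that of NOB1 also have no overlap between groups. FBL, DDX21, WDR12, NOP58, GAR1 and POP1 overlap.

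Of the 7 genes grouped here under nucleolar scaffolds and rRNA transcription, 6 fell and 0 rose, against a background of 28.5% called lower. The group also holds the GTPases GNL3 and GNL3L, which are not named as scaffolds. NOLC1 (ENSG00000166197; chromosome 10, 102152176 to 102163871, plus strand) encodes a phosphoprotein that gathers snoRNPs and RNA polymerase I. It had 242, 276, 263 and 275 CPM with DMSO and 134, 161, 155 and 175 CPM with dTAGV1. NOLC1 fell by 0.76 ± 0.08 (SE, edgeR adjusted p = 1.74e-08). TCOF1, its structural relative treacle, had 171, 190, 222 and 199 CPM with DMSO and 132, 100, 129 and 131 CPM with dTAGV1. The groups of TCOF1 were separate, with a fall of 0.67 ± 0.09 (SE, edgeR adjusted p = 1.32e-06).

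Of the 5 other members of this group, 4 were called lower and DDX21 was not called. NCL, nucleolin, the most abundant member, had 1382, 1484, 1431 and 1465 CPM with DMSO and 1089, 1134, 1192 and 1140 CPM with dTAGV1, a fall of 0.34 ± 0.06 (SE, edgeR adjusted p = 5.36e-05). The nucleolar GTPases GNL3L and GNL3 fell by 0.40 and by 0.30, also with no overlap between groups. NPM1, nucleophosmin, a chaperone of the granular layer of the nucleolus, fell by 0.22. GENCODE 29 lists 45 pseudogenes named after NPM1, so its value is uncertain where reads fit more than 1 copy. DDX21, a helicase linked to RNA polymerase I transcription, had 654, 674, 701 and 678 CPM with DMSO and 671, 660, 666 and 686 CPM with dTAGV1. Its log2 fold change was -0.01 ± 0.06 (SE).

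The small-subunit processome assembles on the nascent precursor, with the UTP-A complex first. Of 6 UTP-A members, 1 fell, against 28.5% of all tested genes called lower. NOL11 had 178, 199, 202 and 206 CPM with DMSO and 167, 179, 174 and 177 CPM with dTAGV1, with overlapping groups and a fall of 0.17 ± 0.07 (SE, edgeR adjusted p = 0.0477). This call was lost in 10 of 19 alternatives, among them the omission of DMSO replicate 2, 3 or 4 or of dTAGV1 replicate 1 or 3. HEATR1, at the other end of this group, had 97.3, 99.1, 98.2 and 97.2 CPM with DMSO and 93.2, 111, 108 and 107 CPM with dTAGV1, a log2 fold change of 0.10 ± 0.08 (SE). UTP15, WDR75, WDR43 and UTP4 lay between -0.12 and 0.05 and did not pass.

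Among the 11 other processome factors, UTP20 alone was called, against 57.9% of all tested genes. UTP20, a large scaffold, had 38.3, 44.9, 41.9 and 46.7 CPM with DMSO and 30.6, 34.1, 33.3 and 32.4 CPM with dTAGV1, a fall of 0.40 ± 0.11 (SE, edgeR adjusted p = 0.00325). When reads were counted irrespective of strand, UTP20 was 0.64 higher instead, since reads on its opposite strand rose, as given below. The 10 that did not pass ran from -0.29 for RRP9, the U3 snoRNP protein (edgeR, adjusted p = 0.055), to 0.08 for NOL10. NOL10 had 134, 129, 112 and 129 CPM with DMSO and 123, 157, 116 and 138 CPM with dTAGV1. RRP9 passed the test in 8 of 19 alternatives, among them limma-voom (adjusted p = 0.0458) and the omission of DMSO replicate 3 or dTAGV1 replicate 2. DDX10, a helicase at -0.16, passed in 4, among them the omission of DMSO replicate 1 or dTAGV1 replicate 3. The RNA acetyltransferase NAT10, the helicase DDX52, and NOP14, NOL6, UTP3, UTP6 and UTP18 were also not called, which does not show that they were equal.

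**Figure D3:**
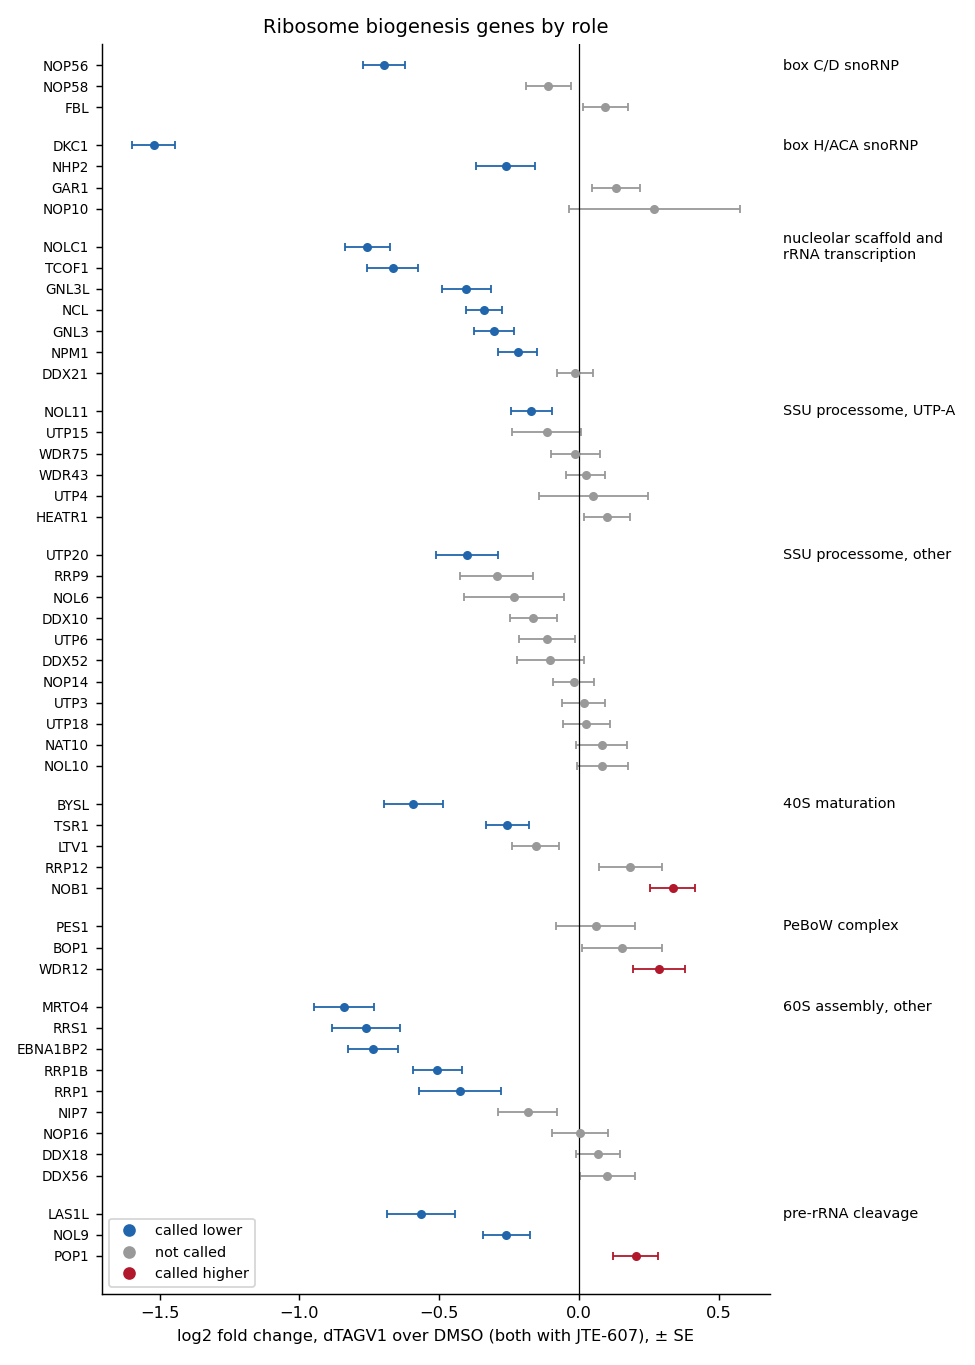
Log2 fold change (x axis, dTAGV1 over DMSO) with standard error for the 51 tested members, grouped by role, in blue where called lower, red where called higher and grey where not called. DKC1 lies farthest from 0 at -1.52. In the group of nucleolar scaffolds and rRNA transcription 6 of 7 genes are blue, and 15 of 17 small-subunit processome genes are grey.

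Late maturation of the small subunit had members called in both directions. BYSL, bystin, had 58.2, 63.2, 64.8 and 63.5 CPM with DMSO and 34.9, 45.6, 47.1 and 38.5 CPM with dTAGV1, and fell by 0.59 ± 0.11 (SE, edgeR adjusted p = 3.67e-05). TSR1, an assembly factor related to GTPases, fell by 0.26 with no overlap between groups, and by 0.54 when strand was ignored, a count that came to 66.8% of its sense count. NOB1 (ENSG00000141101; chromosome 16, 69741867 to 69754940, minus strand) had 131, 109, 112 and 108 CPM with DMSO and 141, 155, 135 and 150 CPM with dTAGV1. NOB1 rose by 0.34 ± 0.08 (SE, edgeR adjusted p = 0.00105), and DMSO replicate 1 came close to the lowest dTAGV1 library. LTV1 and RRP12 had log2 fold changes of -0.15 and 0.18 and did not pass, although LTV1 passed in 3 of 19 alternatives, among them the omission of dTAGV1 replicate 4.

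Of the 3 subunits of the PeBoW complex, which acts in large-subunit rRNA processing, 1 rose and 0 fell. Over all tested genes, 29.4% were called higher and 28.5% lower. WDR12 had 74.6, 78.9, 73.6 and 87.0 CPM with DMSO and 88.2, 101, 85.4 and 109 CPM with dTAGV1. Its groups overlapped at the edge, and it rose by 0.29 ± 0.09 (SE, edgeR adjusted p = 0.0104), a call lost in 4 of 19 alternatives. These were scaling by library size alone (0.21), the test against a fold change of 1.2, and the omission of dTAGV1 replicate 4 (0.20) or of dTAGV1 replicates 3 and 4 together (0.25). BOP1 had 40.4, 29.7, 28.8 and 34.4 CPM with DMSO and 40.8, 46.8, 31.2 and 30.04 CPM with dTAGV1. PES1 had 19.1, 23.6, 29.6 and 26.2 CPM with DMSO and 28.1, 26.9, 25.0 and 23.2 CPM with dTAGV1. BOP1 and PES1 had log2 fold changes of 0.15 and 0.06, each ± 0.14 (SE), so that changes of this size were not detectable. Without dTAGV1 replicates 3 and 4 together, BOP1 was called higher at 0.38 (edgeR adjusted p = 0.0361).

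Other large-subunit assembly factors held 5 that fell among 9 tested, against 28.5% of all tested genes called lower. MRTO4 (ENSG00000053372; chromosome 1, 19251539 to 19260128, plus strand), which prepares the binding site of the ribosomal stalk, had 131, 159, 122 and 156 CPM with DMSO and 64.1, 89.4, 73.7 and 90.1 CPM with dTAGV1. It fell by 0.84 ± 0.11 (SE, edgeR adjusted p = 8.75e-07). RRS1, which helps bring in the 5S particle, had 41.5, 52.1, 53.9 and 49.7 CPM with DMSO and 24.1, 28.1, 30.1 and 33.8 CPM with dTAGV1, a fall of 0.76. EBNA1BP2 had 151, 172, 176 and 174 CPM with DMSO and 83.6, 96.7, 113 and 110 CPM with dTAGV1, a fall of 0.74. In these 3 genes every dTAGV1 library was below every DMSO library.

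The paralogues RRP1B and RRP1 were also both called lower, by 0.51 and by 0.42. The call of RRP1B turned to 0.19 (edgeR, adjusted p = 0.087) when strand was ignored, a count that came to 64.3% of its sense count. The loss was larger in the DMSO libraries, from 428, 513, 477 and 527 sense counts to 229, 269, 241 and 256. In the dTAGV1 libraries it was from 311, 241, 313 and 410 to 276, 204, 274 and 323. The fall of RRP1B was thus not seen in the counts that ignore strand, and the cause was not tested. RRP1 lost its call without DMSO replicate 2 (log2 fold change -0.34), without dTAGV1 replicate 4 (-0.35) and without dTAGV1 replicates 3 and 4 together (-0.32). NIP7, NOP16 and the helicases DDX18 and DDX56 ran from -0.18 to 0.10 and did not pass, although NIP7 was called lower when scaled by library size alone. DDX56, the highest of them, had 62.6, 69.7, 72.6 and 64.8 CPM with DMSO and 69.2, 79.5, 80.1 and 61.5 CPM with dTAGV1.

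The 3 genes for cleavage of the precursor were each called, as were 57.9% of all tested genes. LAS1L, an endonuclease of the second internal spacer, had 33.1, 33.0, 37.6 and 33.1 CPM with DMSO and 24.1, 24.2, 21.5 and 22.7 CPM with dTAGV1. It fell by 0.56 ± 0.12 (SE, edgeR adjusted p = 0.000307), and its partner, the kinase NOL9, fell by 0.26 ± 0.09 (SE, edgeR adjusted p = 0.0112), a call lost without dTAGV1 replicates 3 and 4 together. POP1, a subunit of the ribonucleases MRP and P, had 103, 128, 114 and 116 CPM with DMSO and 143, 134, 123 and 131 CPM with dTAGV1. POP1 rose by 0.20 ± 0.08 (SE, edgeR adjusted p = 0.0368), with overlapping groups and a call lost in 12 of 19 alternatives, among them the omission of DMSO replicates 1, 3 or 4 or dTAGV1 replicates 1, 2 or 4.

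In size, the members' changes were modest. Their median absolute log2 fold change was 0.18, against 0.42 over all tested genes and 0.28 over ribosomal protein genes. The median standard error was 0.088 over members and 0.14 over all tested genes, and its part in this contrast was not tested. The members' median log2 fold change was -0.12, against 0.01 over all tested genes. Groups did not overlap in CPM for 18 members that were lower (25.1% of all tested genes) and for 1 that was higher (25.8%). Of the 23 calls, 10 held in all 19 alternatives: those of DKC1, MRTO4, RRS1, NOLC1, EBNA1BP2, NOP56, TCOF1, BYSL, LAS1L and GNL3L, each of them lower. Against a fold change of 1.2, 11 members were called lower and 0 higher.

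A second list of 112 ribosome biogenesis genes that are not members was examined beside them. Of 105 tested, 32 were called lower (30.5%) and 16 higher (15.2%), against 28.5% and 29.4% of all tested genes. The median log2 fold change of this list was -0.07. The lowest called were RPP25, a subunit of ribonucleases MRP and P, at -1.53 (8.45 ± 0.955 to 2.90 ± 1.30 CPM, SD, n = 4 each), NOL12 at -1.20, NOC3L at -1.03 and URB1 at -0.99. The highest called were RIOK3 at 0.99 (71.6 ± 1.33 to 143 ± 11.1 CPM, SD, n = 4 each), SENP3 at 0.55, NOP53 at 0.54 and RIOK2 at 0.54. RIOK2 is a kinase of late small-subunit maturation, the stage at which NOB1 acts. Within this list, the RNA polymerase I machinery had 4 called higher and 3 lower of 19 tested, and further small-subunit and large-subunit factors had 5 higher and 11 lower of 32 and 6 higher and 16 lower of 45. Ribonuclease MRP had 1 higher and 2 lower of 9.

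The products of the ribosomal protein genes are what the members assemble. Of 77 tested, 60 were called higher and 2 lower, against 29.4% and 28.5% of all tested genes. The median log2 fold change of these 77 was 0.27, and 47 were higher without dTAGV1 replicates 3 and 4 together. The members had 3 higher and 20 lower. RPS19 rose by 0.60 (1265 ± 81.9 to 1920 ± 91.2 CPM, SD, n = 4 each), and the 2 that fell were RPL22 at -0.82 and RPL36A at -0.34, named after their values were seen. These genes have many pseudogenes, so that their values are uncertain. Scaling by library size alone shifted all log2 fold changes by a median of -0.07 and gave 25 members lower and 1 higher beside 2 ribosomal protein genes lower and 44 higher.

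**Figure D4:**
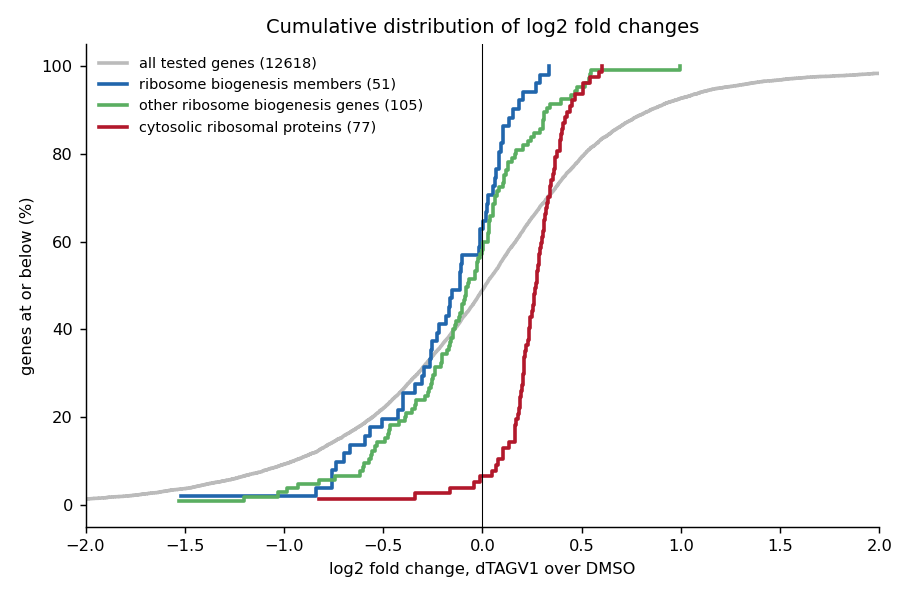
Percent of genes (y axis) at or below each log2 fold change (x axis, shown from -2 to 2) for all 12618 tested genes, the 51 tested members, 105 other ribosome biogenesis genes and 77 cytosolic ribosomal protein genes. The members' line lies to the left of that of the ribosomal proteins, with medians of -0.12 and 0.27, and is steeper than that of all genes.

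Some members host small nucleolar RNAs, the guides of the same snoRNPs. GENCODE 29 places snoRNA genes inside 8 of the 51 tested members (15.7%), on the same strand, against 1.92% of tested protein-coding genes. These hosts were NOP56 with 5, GNL3 with 6, NOP58 with 4, NCL and WDR43 with 3 each, DKC1 and TSR1 with 2 each and NOL11 with 1. Of the 8 hosts, 6 were called lower and 0 higher, and of the other 43 members 14 were lower and 3 higher. Over all 204 tested host genes, 63 were lower and 74 higher. The snoRNAs themselves lack poly(A) tails and were not analysed here.

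Reads on the opposite strand were tested as a second readout of the same loci. Of 3324 genes with enough such reads, 48.4% were called, and of the members 5 could be tested and 2 were called. At UTP20 the opposite-strand counts were 66, 65, 41 and 55 with DMSO and 216, 219, 188 and 232 with dTAGV1. They rose by 1.89 ± 0.14 on the log2 scale (SE, edgeR adjusted p = 1.15e-12), while the sense counts of UTP20 fell. The nearest tested gene that runs towards UTP20 on that strand is ARL1, 6504 bases beyond its end, whose own log2 fold change was -0.03 ± 0.12 (SE). At HEATR1, opposite-strand counts fell by 0.98 ± 0.16 (SE), and LGALS8, which overlaps HEATR1 on that strand, fell by 0.36. The part of these neighbours in the opposite-strand counts was not tested.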

How the data were processed

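RNA of 8 libraries (4 DMSO and 4 dTAGV1, all with JTE-607) was extracted with Trizol and made into Lexogen QuantSeq forward 3′ libraries, per the labels' protocols. The authors deposited whole-number read counts per gene. FastQC, fastp, STAR, HTSeq and DESeq2 on GRCh38 are named in the submitters' processing notes, and their versions, the annotation and any removal of PCR copies are not given in the sources used here. The sense-strand column was used, and the 4 totals of reads given to no gene (56.7% to 62.8% of reads) stayed out of library sizes. Reads that fit more than 1 gene are lost, which lowers overlapping genes.

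Counts were filtered with filterByExpr, scaled by TMM and tested with edgeR 4.0.16 in R 4.3.3 (quasi-likelihood, robust), with Benjamini-Hochberg adjustment over all tested genes and a threshold of 0.05. Positive values are higher with dTAGV1. The standard error is the absolute log2 fold change divided by the root of the F statistic. CPM are counts per 1000000 of the filtered, TMM-scaled library. Symbols came from a table that held 61481 of the 78932 identifiers, coordinates from GENCODE 29. The test was also run on simulated counts in which few genes were changed. Since 57.9% of the tested genes were called here, that run cannot show how scaling and test behave at such a share.

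Every member is accounted for. Per-library values are given for the box C/D, box H/ACA and PeBoW members. They are also given for the 6 lowest and the called higher members, and for the extremes of each of 9 role groups. Values of NCL and TCOF1 were added after they were seen. Of the second list the 4 highest and 4 lowest calls are named. A planned ranking of members by correlation with NOP56 was left out because the libraries form 2 treatment clusters. Members and lists were chosen with earlier results of these data known. Alternatives were DESeq2 1.42.0, limma-voom (limma 3.58.1), other scalings, filters, strand counting, dispersions, a replicate block, a fold-change threshold and the omission of each library. Omission of dTAGV1 replicates 3 and 4 together, which had 24.9% and 20.4% unmapped reads against 29.9% and 30.3% in the other dTAGV1 libraries, was added after seeing the data. Figures used matplotlib 3.10.9.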

Additional observations from a re-analysis of the deposited data

Results flagged for a closer look

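In 6 of 102 sets of 4 libraries, 1 library stood apart from the other 3 in the CPM of a member, by a gap above the critical share of the range in Dixon's test, and chance gives about 1 in 20. For TCOF1 the lowest dTAGV1 library was replicate 2 at 99.99 CPM against 129 to 132 CPM in the others, a gap of 0.888 of the range. WDR75, a UTP-A subunit, was highest in dTAGV1 replicate 2 at 85.8 CPM against 78.0 to 78.7 CPM (0.911). NOB1 was highest in DMSO replicate 1 at 131 CPM against 108 to 112 CPM (0.848), on the side of the dTAGV1 libraries. DDX18, a large-subunit helicase, and EBNA1BP2 were lowest in that same library, at 273 CPM against 290 to 291 CPM (0.930) and at 151 CPM against 172 to 176 CPM (0.854). LAS1L was highest in DMSO replicate 3 at 37.6 CPM against 33.0 to 33.1 CPM (0.978).

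Opposite-strand counts at UTP20, which lie outside the sense counts, were above the DMSO level in each dTAGV1 library, with a log2 fold change of 1.89.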

How the results depend on the processing

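Over the 51 tested members and 19 alternatives, 896 of 964 values kept their side of the threshold, 47 lost a call and 19 gained one. A called direction turned in 2, both with counts irrespective of strand: UTP20 (0.64) and RRP1B (0.19). Values that were not called changed sign in 51. The members' median ranged from -0.20 to -0.10. Against a fold change of 1.2, calls fell to 11 lower and 0 higher for members, 19 and 7 for the second list, and 16 higher and 1 lower for ribosomal proteins, as this threshold is stricter. Scaling by library size left 1 member higher. With a mean of at least 100 counts, calls over all genes were 4120 of 6369, 2131 higher and 1989 lower, since fewer were tested, and 1 member was called on the opposite strand. Ribosomal proteins called lower were 1 with DESeq2, without a filter and with that mean, and 4 without dTAGV1 replicates 3 and 4. The cause was not tested. The omission of single libraries gave 17 to 21 members lower, 1 to 3 higher (1 without dTAGV1 replicate 4) and 1 to 3 ribosomal proteins lower (1 without DMSO replicate 2, or dTAGV1 replicate 2 or 3).

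The replicate block called 21 members lower and 3 higher, and 7434 genes in all. RRP9 was the member it added (adjusted p = 0.0399). Deviations of libraries with the same number correlated at 0.13, -0.02, 0.02 and 0.03, so the numbers were not taken to pair them. Depth limits NOP10, UTP4, NOL6, NOP2 and DDX51.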
